A study of Mus musculus with 8 samples.

Results

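The proteasome genes were the mouse genes whose symbol starts with Psma, Psmb, Psmc, Psmd, Psme, Psmf or Psmg. Of 50 such protein-coding genes, 41 were the nearest gene of at least 1 ERRα peak in 4 peak lists, and 37 had a peak no more than 20 kb from their transcription start site (TSS). These 37 genes carried 97 of the 126927 listed peaks. The products of 49 of the 50 genes belong to the proteasome or assist its assembly. The exception, Psmc3ip, takes its name from a partner of the Psmc3 product and encodes a meiotic recombination factor. Its own peaks are described apart from those of the subunits, while the counts over the 50 genes and their 97 peaks include it.

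ERRα is an orphan nuclear receptor that binds the ERR response element (ERRE), TCAAGGTCA, and is known for its control of mitochondrial genes. Chromatin immunoprecipitation with an ERRα antibody (ChIP-seq) was done in skeletal muscle (gastrocnemius and soleus) and liver of male WT and ERRα3SA mice of 2 to 3 months on the C57BL/6N background, taken at zeitgeber time 9. ERRα3SA mice express a phospho-mutant ERRα with altered amino-terminal phosphorylation sites, which the study describes as a stabilised protein. Each list came from 1 library of pooled ChIPs (3 by the sample labels, while the study's methods give another number), drawn from the chromatin of 5 mice for muscle and 2 mice for liver, and peaks were called against input DNA. With 1 library per genotype and tissue there was no replicate check, no p-value can be given, and the 95% Wilson intervals below cover counting error only. A missing peak means that none was called, and read depth behind the lists is unknown.

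The lists held 25427 peaks in WT muscle, 50647 in ERRα3SA muscle, 21813 in WT liver and 29040 in ERRα3SA liver, of which 12999, 23571, 11216 and 16104 lay within 20 kb of a TSS. The ERRα3SA list was the longer one in both tissues, and the gene counts below are given for lists of equal length as well. Of 12 muscle marker genes, such as Ckm and Mylpf, 9 had a peak in WT muscle and 10 in ERRα3SA muscle, against 5 and 8 in the liver lists. Of 12 liver marker genes, such as Pck1 and Hnf4a, 7 had a peak in WT liver and 8 in ERRα3SA liver, against 3 and 7 in the muscle lists. In the other tissue's WT and ERRα3SA lists this was 41.7% and 66.7% of muscle markers and 25% and 58.3% of liver markers. Of all protein-coding genes, 30% and 37.7% had a peak in the liver lists and 34.5% and 48% in the muscle lists. The markers were thus above all genes in the other tissue as well, except liver markers in WT muscle. Each listed peak has a score, which was at least 100 at the muscle marker Mylpf in all 4 lists. Scores were ranked within a list, with tied peaks at the best rank of the tie, and the percentage in parentheses is that rank divided by the length of the list.

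The proteasome degrades proteins tagged with ubiquitin. Its 20S core is a barrel of outer rings of alpha subunits (Psma genes) and inner rings of beta subunits (Psmb genes), the latter holding the proteolytic sites. The 19S cap recognises, deubiquitinates and unfolds substrates with a ring of ATPases (Psmc genes) and non-ATPase subunits (Psmd genes). Other activators (Psme genes) open the core without ATP, Psmf1 encodes an inhibitor, and dedicated chaperones (Psmg genes, Psmd5, Psmd9 and Psmd10) assemble core and cap. Interferon induces immunoproteasome forms of the catalytic beta subunits (Psmb8, Psmb9 and Psmb10). In muscle the proteasome carries much of the protein loss of atrophy, and in liver it turns over metabolic enzymes.

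Windows of 300 bp around the centre of a called interval are shown, in GRCm38 coordinates (the mm10 build of the lists), because they hold the best-ranked sites and a promoter peak of a core subunit. Capitals mark TCAAGGTCA and AAGGTCA, its shorter half-site, on either strand. The Psmc3ip and Psmb7 windows held an ERRE, which reads TGACCTTGA on the plus strand. The Psmb7 window held a further half-site close by on the same strand. The Psme4 window held 2 half-sites and no ERRE, and the Psma6 promoter window held neither. The windows are those of the ERRα3SA muscle peaks of Psmc3ip and Psme4 and the ERRα3SA liver peaks of Psmb7 and Psma6. In both liver peaks of Psme4 its half-sites lay outside the central 300 bp, and the WT muscle interval did not hold them.
Psmc3ip promoter, chr11:101095533-101095832, plus strand: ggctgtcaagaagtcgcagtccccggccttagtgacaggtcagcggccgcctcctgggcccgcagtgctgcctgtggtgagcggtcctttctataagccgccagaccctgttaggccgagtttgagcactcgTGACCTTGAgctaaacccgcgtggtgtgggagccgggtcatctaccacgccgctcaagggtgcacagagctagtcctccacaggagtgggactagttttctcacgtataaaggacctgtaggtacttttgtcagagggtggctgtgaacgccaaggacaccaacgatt
Psmb7 intron, chr2:38641816-38642115, plus strand: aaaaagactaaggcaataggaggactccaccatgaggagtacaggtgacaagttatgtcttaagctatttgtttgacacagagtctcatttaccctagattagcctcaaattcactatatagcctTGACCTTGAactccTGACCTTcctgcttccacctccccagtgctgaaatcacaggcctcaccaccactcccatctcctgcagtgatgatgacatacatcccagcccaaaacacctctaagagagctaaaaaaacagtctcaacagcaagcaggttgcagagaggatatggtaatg
Psme4 intron, chr11:30784931-30785230, plus strand: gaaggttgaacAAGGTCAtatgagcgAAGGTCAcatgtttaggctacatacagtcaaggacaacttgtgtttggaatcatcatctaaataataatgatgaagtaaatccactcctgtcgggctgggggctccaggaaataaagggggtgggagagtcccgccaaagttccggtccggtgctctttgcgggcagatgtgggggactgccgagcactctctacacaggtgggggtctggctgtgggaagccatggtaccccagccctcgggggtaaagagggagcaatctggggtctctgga
Psma6 promoter, chr12:55398359-55398658, plus strand: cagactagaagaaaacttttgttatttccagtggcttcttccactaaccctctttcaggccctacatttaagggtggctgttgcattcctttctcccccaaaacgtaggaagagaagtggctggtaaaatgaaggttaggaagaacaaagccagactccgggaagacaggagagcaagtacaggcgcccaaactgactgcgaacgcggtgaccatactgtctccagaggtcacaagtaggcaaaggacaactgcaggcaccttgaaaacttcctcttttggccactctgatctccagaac

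The ERRE lay in the central 300 bp of a proteasome-gene peak at 10 distinct sites near 9 genes. They are shown with 15 bases to either side, read on the strand of the motif, because their flanks resemble each other. Capitals mark the ERRE. In 7 of the 10, at least 1 list placed the interval centre in a SINE, a short repeat that is copied through retrotransposition.
Psmb7 intron, chr2:38641926-38641964, minus strand: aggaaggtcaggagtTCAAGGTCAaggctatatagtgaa
Psmd9 intron, chr5:123233872-123233910, minus strand: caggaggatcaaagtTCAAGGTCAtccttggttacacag
Psmd7 upstream, chr8:107595256-107595294, minus strand: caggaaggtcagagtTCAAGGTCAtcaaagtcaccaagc
Psmd7 downstream, chr8:107575639-107575677, plus strand: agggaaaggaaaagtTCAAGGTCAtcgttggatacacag
Psmg3 upstream, chr5:139843033-139843071, minus strand: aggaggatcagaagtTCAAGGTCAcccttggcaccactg
Psma3 intron, chr12:70985047-70985085, plus strand: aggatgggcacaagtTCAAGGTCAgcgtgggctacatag
Psmd1 upstream, chr1:86058145-86058183, minus strand: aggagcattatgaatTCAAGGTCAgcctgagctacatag
Psmd8 upstream, chr7:29187297-29187335, plus strand: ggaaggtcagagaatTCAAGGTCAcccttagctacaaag
Psmb9 intron, chr17:34185874-34185912, plus strand: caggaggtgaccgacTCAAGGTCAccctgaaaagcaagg
Psmc3ip promoter, chr11:101095650-101095688, minus strand: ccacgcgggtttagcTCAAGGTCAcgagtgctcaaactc

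The flanks of the downstream Psmd7 site and the Psmd9 site had 21 of 30 bases in common, and those of Psma3 and Psmd1 had 20. The flanks of the Psmc3ip promoter site shared at most 10 bases with any of the other sites, and those of Psmb9 at most 13. The Psmd8 site, whose interval centre was not annotated as a repeat, had 19 bases in common with Psmd1.

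About as many proteasome genes had a peak as protein-coding genes in general. A peak within 20 kb was called at 14 of 50 proteasome genes in WT muscle (28%, interval 17.5 to 41.7), 22 in ERRα3SA muscle (44%, 31.2 to 57.7), 18 in WT liver (36%, 24.1 to 49.9) and 21 in ERRα3SA liver (42%, 29.4 to 55.8). The shares over all 21887 protein-coding genes were 34.5%, 48%, 30% and 37.7%, and each lay inside the interval of the proteasome genes. With each list cut to its 21813 best peaks, 13, 10, 18 and 16 proteasome genes had a peak (26%, 20%, 36% and 32%, against 30.8%, 28.8%, 30% and 31.5% of all genes), so that WT had the higher count in both tissues. Outside WT liver the cut fell among tied scores, and file order decided which of the tied peaks stayed. Psmd8, Psmd9 and Psmg3 were left out at the tie in ERRα3SA muscle. In WT muscle the tie left out Psmg3 and kept Psmb8. In ERRα3SA liver it kept Psmb2, Psmd12, Psmg1 and Psmg3, so the counts of these 3 lists depend on the ties. A peak in any list was found at 74% of proteasome genes against 66.8% of all genes. Peaks in all 4 lists were found at 6 proteasome genes (12%) against 12.5% of all genes. These 6 were Psmc1, Psmc4, Psmd7, Psme4, Psmg3 and Psmc3ip.

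The members near a strong peak were few. A score of at least 100 was reached at 0 proteasome genes in WT muscle (interval up to 7.13%, against 2.87% of all genes), at 2 in ERRα3SA muscle (4% against 5.50%), at 4 in WT liver (8% against 8.02%) and at 6 in ERRα3SA liver (12% against 11.9%). The proteasome genes at or above that score were Psmb7 in ERRα3SA muscle, Psmb7, Psmd9 and Psme4 in WT liver, and Psmb6, Psmb7, Psmb9, Psmc4 and Psmd9 in ERRα3SA liver, with Psmc3ip beside them in all 3 lists. The median of each bound gene's best rank was the top 37.2% for proteasome genes and 39.1% for all bound genes in WT muscle. It was 38.7% against 23.7% in ERRα3SA muscle, 45.2% against 37.6% in WT liver and 38.6% against 34% in ERRα3SA liver. In ERRα3SA muscle, 15 of the 30 proteasome-gene peaks (50%) had the lowest score of the list, against 34.3% of all peaks within 20 kb. In WT muscle the lowest score was held by 5 of 20 peaks (25%), against 33% of all peaks.

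**Figure D1:**
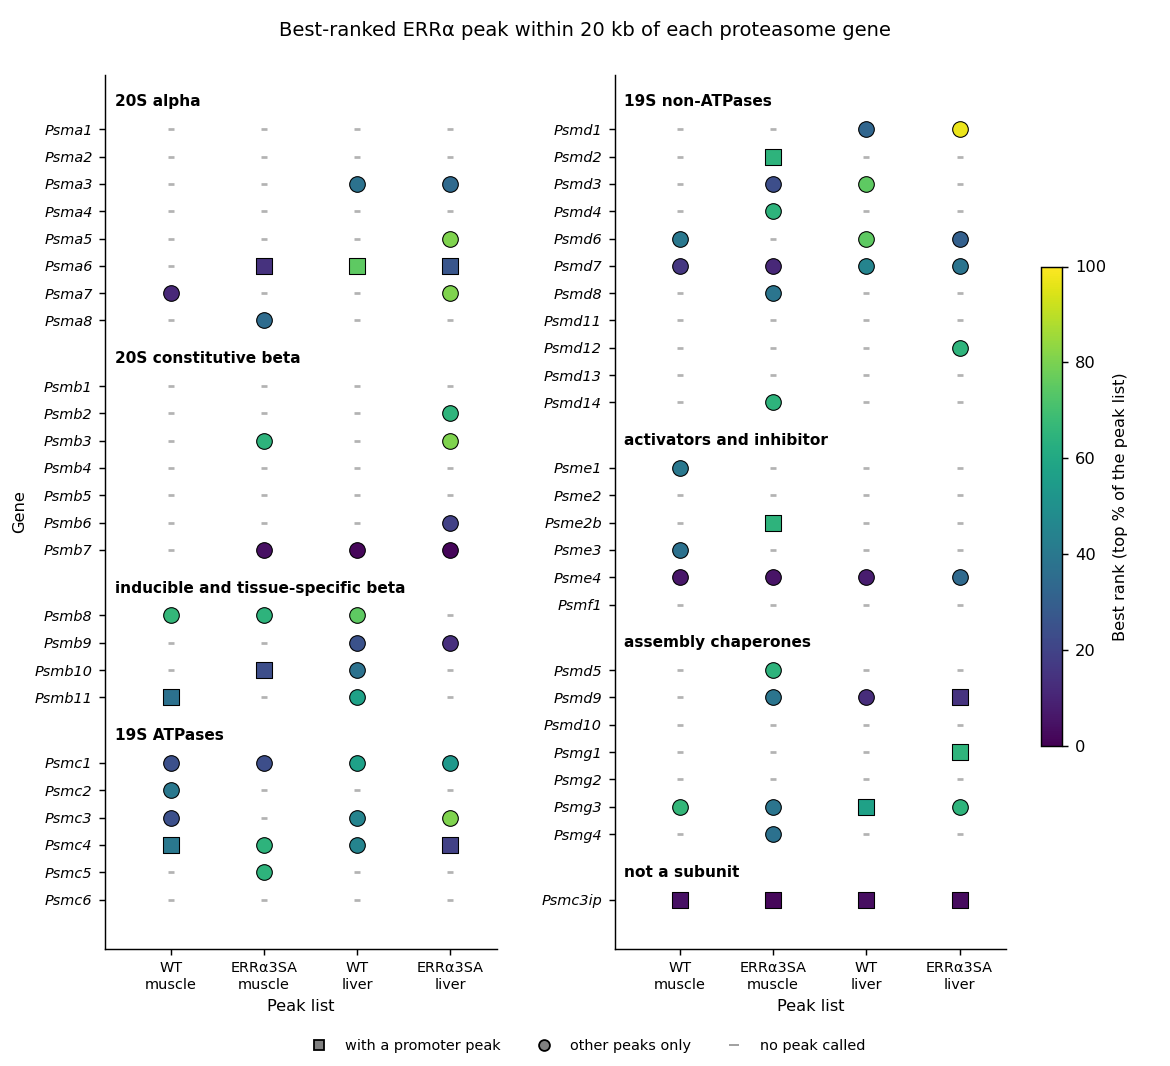
Best-ranked ERRα peak within 20 kb of each of the 50 genes (rows, by role) in the 4 peak lists (columns). Colour gives the rank as the top percentage of the list, squares mark genes with a promoter peak, circles genes with other peaks only, and dashes genes with no peak called. Psmb7, Psme4 and Psmc3ip are the darkest rows, and 13 rows are empty.

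Among the alpha subunits of the core, 5 of 8 genes had a peak (1, 2, 2 and 4 in WT muscle, ERRα3SA muscle, WT liver and ERRα3SA liver). Of all protein-coding genes, 66.8% had a peak in any list, and 34.5%, 48%, 30% and 37.7% in the lists in that order. These shares stand beside the counts of each group below, and no interval was computed for these small groups. Psma6 was the alpha subunit found in most lists, with a promoter peak in 3 of them. Its peak ranked 7187 (top 14.2%) in ERRα3SA muscle, 16370 (75%) in WT liver and 7820 (26.9%) in ERRα3SA liver, with centres 80, 370 and 317 bp upstream of the TSS. The joined interval spanned chr12:55398220-55399271, and no peak was called at Psma6 in WT muscle. Psma3 had a peak 458 bp downstream of its TSS in WT liver (rank 8204, 37.6%) and another at 10397 bp, in an intron and a B1F SINE, in ERRα3SA liver (rank 9882, 34%). Both livers were thus counted as bound at Psma3 through different sites, and the ERRE lay in the second. Psma7 had its best peak in WT muscle (top 11.2%, 6844 bp downstream), while Psma5 and Psma8, a testis form, had 1 peak each, in ERRα3SA liver and ERRα3SA muscle. Psma1 was named only at peaks beyond 20 kb, and Psma2 and Psma4 were named in no list.

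Among the constitutive beta subunits, 4 of 7 genes had a peak (0, 2, 1 and 4 across the lists in the same order). Psmb7, which encodes the subunit with trypsin-like activity, held the best-ranked subunit peak of 3 lists. The peak lay in intron 3 of 7, 1906 to 1941 bp downstream of the TSS, and its centre fell in an ID_B1 SINE. It ranked 452 (top 1.56%) in ERRα3SA liver at chr2:38641732-38642199, 388 (1.78%) in WT liver and 2166 (4.28%) in ERRα3SA muscle. No interval of the WT muscle list lay within 20 kb of Psmb7, so in muscle the site was listed in ERRα3SA alone. Psmb7 had 2 more peaks in ERRα3SA muscle, 239 bp downstream (top 23.7%) and 9282 bp upstream (38.7%) of the TSS. Psmb6, the subunit with caspase-like activity, had 1 peak, in ERRα3SA liver, 2313 bp upstream of the TSS in an RSINE1 SINE (rank 5616, 19.3%). Its centre held TNAAGGTCA, a wider form of the ERRE in which N is any base, but not TCAAGGTCA. Psmb2 and Psmb3 had peaks of the top 64.8% or lower. Psmb5, the subunit with chymotrypsin-like activity, and Psmb4 were named in no list, and Psmb1 only beyond 20 kb.

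The inducible and tissue-specific beta genes each had a peak in at least 1 list (2, 2, 4 and 1 of 4 genes across the lists). Psmb9, an immunoproteasome subunit, had an intron peak with an ERRE in both liver genotypes (chr17:34185554-34186233 joined). It ranked 5512 (top 25.3%) in WT liver and 3915 (13.5%) in ERRα3SA liver, 1412 and 1511 bp from the TSS, and the TSS of Tap1, which shares a promoter region with Psmb9, was 1638 and 1737 bp away. ERRα3SA liver listed another Psmb9 peak 13067 bp downstream (65%). Psmb8 had a peak in its first exon in both WT lists (top 66.4% and 75%) and a separate intron peak in ERRα3SA muscle (64.8%). Psmb10 and the thymus form Psmb11 had peaks no better than the top 23.7% and 37.2% of a list. WT liver was the list with all 4 of these genes, and ERRα3SA liver held Psmb9 alone.

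Of the 6 ATPase genes of the cap, 5 had a peak (4, 3, 3 and 3 across the lists), and none had a peak shared between genotypes. Psmc4 had a promoter peak in WT muscle (rank 15869, top 62.4%) and in ERRα3SA liver (rank 5616, 19.3%), 709 and 705 bp upstream of the TSS. Both of these lists held an intron peak of Psmc4 as well, 1059 bp downstream in WT muscle (rank 10219, 40.2%) and 531 bp downstream in ERRα3SA liver (97.1%). Single peaks in ERRα3SA muscle (64.8%) and WT liver (45.2%) lay 2045 and 3427 bp upstream. Psmc1, bound in all 4 lists, had no peak in common between lists, with centres from 15421 bp upstream to 19818 bp downstream, with best ranks of the top 24.6% (WT muscle), 23.7% (ERRα3SA muscle), 57% (WT liver) and 53.4% (ERRα3SA liver). Psmc3 had a site 7353 to 7601 bp upstream shared by the WT lists of both tissues (66.4% and 75%). Psmc2 and Psmc5 were bound in 1 muscle list each, and Psmc6 was named in no list.

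Of the 11 non-ATPase cap genes, 9 had a peak (2, 6, 4 and 4 across the lists). Psmd7, a lid subunit and partner of the deubiquitinase Psmd14, had an intergenic site 6733 to 6885 bp upstream in 3 lists (chr8:107595042-107595513 joined). It ranked 5574 (top 11%) in ERRα3SA muscle, 9851 (45.2%) in WT liver and 18865 (65%) in ERRα3SA liver, with an ERRE at the centre each time and an ID_B1 SINE at the centre in liver. WT muscle had no peak there and had another Psmd7 peak 15320 bp downstream (16%). A second Psmd7 site with an ERRE, centred in an ID_B1 SINE, was listed in ERRα3SA liver (38.6%, 12882 bp downstream). Psmd1, the large scaffold subunit of the cap, had a site shared between the liver genotypes (32.6% in WT, 97.1% in ERRα3SA), 6489 to 6552 bp upstream and with an ERRE. The shared liver site at Psmd6 lay 849 to 945 bp downstream (75% in WT, 30.1% in ERRα3SA). Psmd8 had an ERRE in 1 of its 2 peaks, both in ERRα3SA muscle (38.7%, 6732 bp upstream). Psmd2, Psmd4 and Psmd14, which encode a scaffold, a ubiquitin receptor and the deubiquitinase, were each bound in ERRα3SA muscle alone and at the lowest score of that list (64.8%).

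Among activators and the inhibitor, 4 of 6 genes had a peak (3, 2, 1 and 1 across the lists). Psme4, which encodes the activator PA200, was the proteasome gene proper with a site shared by all 4 lists. The site lay in its first intron, 13305 to 13565 bp downstream of the TSS, in an RMER17B2 long terminal repeat (chr11:30784906-30785748 joined). It ranked 1543 (top 6.07%) in WT muscle, 2602 (5.14%) in ERRα3SA muscle, 1746 (8%) in WT liver and 9882 (34%) in ERRα3SA liver. The first 3 ranks were close together and the ERRα3SA liver peak ranked lower. Psme1 and Psme3, of the PA28 family, were bound in WT muscle alone (40.2% and 37.2%), Psme2b in ERRα3SA muscle alone (64.8%), and Psme2 and Psmf1 in no list.

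Of the 7 chaperone genes, 5 had a peak (1, 4, 2 and 3 across the lists). Psmd9, a chaperone of the ATPase ring, had an intron site 5496 to 5689 bp downstream in 3 lists (chr5:123233283-123234204 joined), ranked 2765 (top 12.7%) in WT liver, 4219 (14.5%) in ERRα3SA liver and 32824 (64.8%) in ERRα3SA muscle. Its ERRE lay in the central window of both liver peaks, which were centred in an ID_B1 SINE. In the broader muscle interval the ERRE lay outside that window, and the centre was annotated as intron alone. ERRα3SA liver listed 2 further Psmd9 peaks in the promoter (34% and 80.6%), and ERRα3SA muscle listed 2 further intron peaks, 428 bp (38.7%) and 15360 bp (64.8%) downstream. Psmg3 was bound in all 4 lists, at a promoter-proximal site in both WT lists (66.4% in muscle, 57.4% in liver) and at distal sites in the ERRα3SA lists (38.7% and 65%), of which the liver one held an ERRE 16243 bp upstream. Psmd5 and Psmg4 were bound in ERRα3SA muscle alone, Psmg1 in ERRα3SA liver alone, and Psmg2 in no list.

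Psmc3ip, which is not a proteasome gene by function, held the best rank of all 50 genes in both muscle lists. Its promoter peak (chr11:101094957-101096052 when joined over the lists) ranked 1186 (top 4.66%) in WT muscle, 928 (1.83%) in ERRα3SA muscle, 788 (3.61%) in WT liver and 824 (2.84%) in ERRα3SA liver, with the centre 11 to 247 bp upstream of the TSS. The ERRE lay in the central window of 3 of these peaks and outside it in the ERRα3SA liver peak. Without Psmc3ip, the genes with a shared peak in muscle came down to Psme4 alone.

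**Figure D2:**
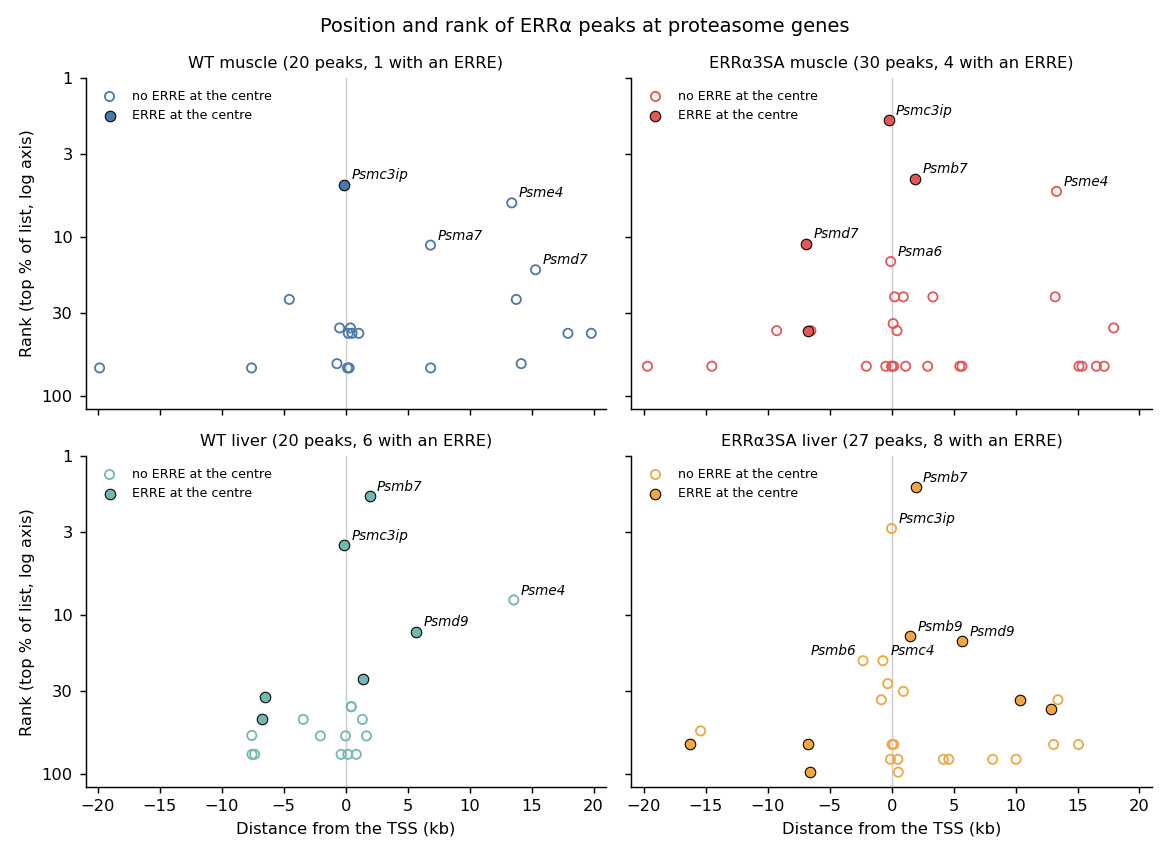
Distance of each proteasome-gene peak from the TSS (kb, negative upstream) against its rank as the top percentage of the list (log axis, best at the top), in 1 panel per peak list. Filled points hold an ERRE in the central 300 bp, open points do not, and genes in the top 20% are named. The filled points sit mostly away from the TSS, the Psmc3ip promoter being the one within 1 kb.

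The share of proteasome-gene peaks near the TSS was above that of all peaks in each list, by a margin that lay within the counting error in 3 of the 4. Within 1 kb of the TSS were 8 of 20 peaks in WT muscle (40% against 26.2% of all peaks within 20 kb), 10 of 30 in ERRα3SA muscle (33.3% against 17.4%), 7 of 20 in WT liver (35% against 20.6%) and 10 of 27 in ERRα3SA liver (37% against 22.6%). The Wilson intervals of these shares (21.9 to 61.3, 19.2 to 51.2, 18.1 to 56.7 and 21.5 to 55.8) included the share of all peaks in 3 lists and lay above it in ERRα3SA muscle. Each of these counts holds the promoter peak of Psmc3ip, and no interval was computed without that peak. Counted by gene, a promoter peak (from 1000 bp upstream to 100 bp downstream, as the annotation defines it) was called at 3 genes in WT muscle (6% against 6.23% of all genes), 5 in ERRα3SA muscle (10% against 7.61%), 3 in WT liver (6% against 5.03%) and 5 in ERRα3SA liver (10% against 7.82%). Besides Psmc3ip in every list, these were Psmb11 and Psmc4 in WT muscle, Psma6, Psmb10, Psmd2 and Psme2b in ERRα3SA muscle, Psma6 and Psmg3 in WT liver, and Psma6, Psmc4, Psmd9 and Psmg1 in ERRα3SA liver. Psma6 was the subunit gene with a promoter peak in more than 2 lists. Of the 35 peaks within 1 kb, 4 scored at least 100. They were the Psmc3ip promoter peaks of ERRα3SA muscle and both livers, which are the same site, and a Psmc4 peak of ERRα3SA liver. The share of all peaks within 1 kb that reached this score was not computed. The median CpG content of these 35 intervals was 5.48% (5.17% for all peaks so placed), against 1.79% for the 18 peaks at 1 to 5 kb and 1.52% for the 44 peaks beyond.

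In muscle the genotypes had few proteasome-gene sites in common. Peaks were called in both genotypes at 7 genes (14%, interval 6.95 to 26.2, against 25.6% of all genes), in ERRα3SA alone at 15 (30%, against 22.4%) and in WT alone at 7 (14%, against 8.95%). A shared peak, with centres no more than 300 bp apart and whichever gene the partner was assigned to, was found at Psme4 and Psmc3ip alone (4%, interval 1.1 to 13.5, against 10.5%). The other 5 genes bound in both genotypes, Psmb8, Psmc1, Psmc4, Psmd7 and Psmg3, had different sites in each. Of the proteasome-gene peaks in WT muscle, 2 of 20 (10%) had a partner in ERRα3SA muscle, against 23.4% of all peaks within 20 kb. In lists of equal length, 4 genes had a peak in both muscle genotypes (8% against 16.3% of all genes), 6 in ERRα3SA alone (12% against 12.5%) and 9 in WT alone (18% against 14.5%), so that the excess in ERRα3SA was not kept. These counts depend on tied scores at the cut, which were broken by file order. Each interval of the counts from the full lists included the share over all genes (19.1 to 43.8 for ERRα3SA alone and 6.95 to 26.2 for WT alone).

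In liver the sharing was like that of the lists as a whole. Peaks were called in both genotypes at 14 genes (28% against 22.7% of all genes), in ERRα3SA alone at 7 (14% against 15%) and in WT alone at 4 (8% against 7.29%). A shared peak was found at 9 genes (18%, interval 9.77 to 30.8, against 17.3%), namely Psma6, Psmb7, Psmb9, Psmd1, Psmd6, Psmd7, Psmd9, Psme4 and Psmc3ip. Of the WT liver peaks at proteasome genes, 9 of 20 (45%) had a partner in ERRα3SA liver, against 49.2% of all peaks. The number of proteasome-gene peaks was 1.5 times as high in ERRα3SA as in WT muscle (interval 0.858 to 2.62) and 1.35 times in liver (0.763 to 2.39). The same ratios over all peaks within 20 kb were 1.81 and 1.44.

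Joined across lists, the 97 peaks made 76 sites. Of these, 63 were in 1 list (82.9%, against 80.8% of all sites), 7 in 2 lists (9.21% against 12.6%), 4 in 3 lists (5.26% against 3.76%) and 2 in all 4 (2.63% against 2.85%). The sites in 3 lists, at Psma6, Psmb7, Psmd7 and Psmd9, were each listed in ERRα3SA muscle and both livers and not in WT muscle. All but Psma6 held an ERRE. Their centres were annotated to an ID_B1 SINE in both livers, while in ERRα3SA muscle this held for Psmb7 alone.

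The ERRE lay at the centre of more proteasome-gene peaks in liver than in muscle, as it did over all peaks. It lay in the central 300 bp of 1 of 20 proteasome-gene peaks in WT muscle (5%, against 4.45% of all peaks within 20 kb), 4 of 30 in ERRα3SA muscle (13.3%, interval 5.31 to 29.7, against 4.86%), 6 of 20 in WT liver (30%, interval 14.5 to 51.9, against 15.2%) and 8 of 27 in ERRα3SA liver (29.6%, interval 15.9 to 48.5, against 14.9%). With Psmc3ip counted, the share of all peaks lay just below the interval in both ERRα3SA lists and inside it in both WT lists. The WT muscle peak with an ERRE belonged to Psmc3ip, as did 1 of the 4 in ERRα3SA muscle and 1 of the 6 in WT liver. No interval was computed without Psmc3ip. Windows of the same size 5 kb to either side held the ERRE in 0 of 40, 0 of 60, 1 of 40 and 1 of 54 cases, and the reversed letters ACTGGAACT were in none of the central windows. Peaks at the same site in several lists are not independent, and the 19 peaks with an ERRE stand for the 10 sites shown above. Among motifs of other factors that regulate proteasome genes, TGACNNNGC, the core of the antioxidant response element, was in 1, 5, 3 and 3 of the central windows (5%, 16.7%, 15% and 11.1%, against 13.9%, 14.1%, 13.9% and 13.9% of all peaks).

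Most of the ERRE sites lay in peaks with an interval centre annotated as a SINE in at least 1 list. This repeat annotation was read after the values were seen, and whether the motif itself lay inside the repeat was not tested. Of the 19 peaks with an ERRE, 11 were centred in a SINE and 9 of these in an ID_B1 element, a member of the B4 family, while 6 of the 78 peaks without an ERRE were centred in a SINE. The 9 peaks centred in ID_B1 belonged to Psmb7, Psmd7, Psmd9 and Psmg3. All 9 held the motif, as did 72.1% of the 1641 ID_B1-centred peaks of all genes. Of all peaks within 20 kb and centred outside SINEs, 6.70% held it. In WT liver, 6 of 20 proteasome-gene peaks were centred in a SINE (30%, against 12.8% of all peaks), in ERRα3SA liver 7 of 27 (25.9% against 12.3%), in ERRα3SA muscle 4 of 30 (13.3% against 7.29%) and in WT muscle 0 of 20 (against 6.09%).

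**Figure D3:**
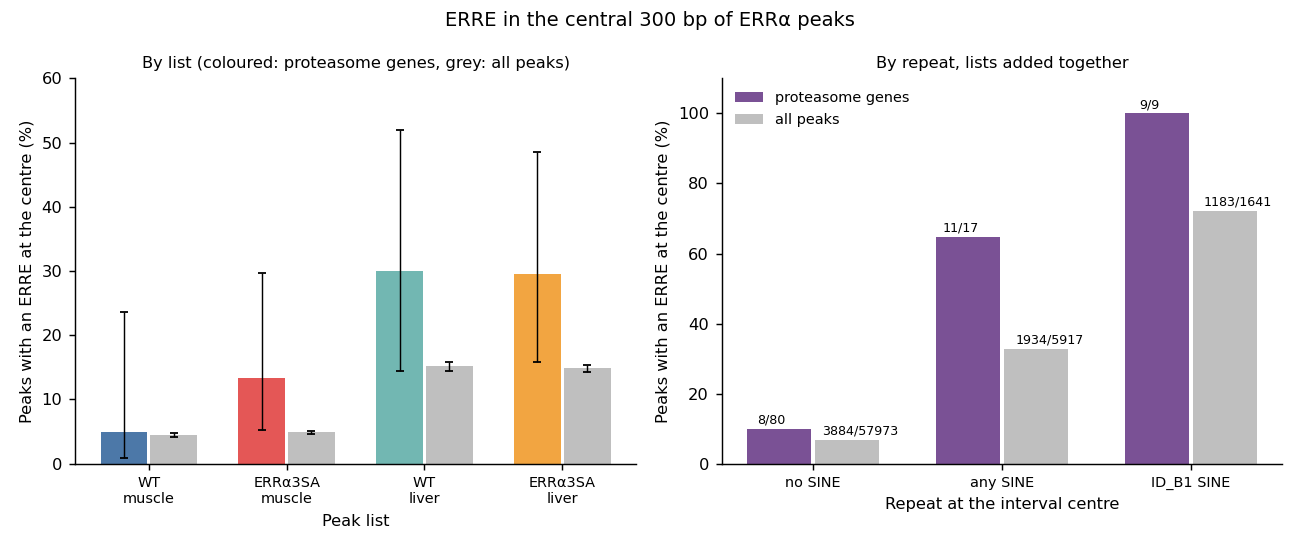
Percentage of peaks that hold an ERRE in the central 300 bp, over peaks within 20 kb. The left panel gives each list, with proteasome-gene peaks coloured, all peaks in grey and 95% Wilson intervals. The right panel adds the 4 lists together by the repeat at the interval centre, with counts above the bars and any SINE including ID_B1. Proteasome-gene peaks centred in ID_B1 held the motif in 9 of 9 cases.

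The RefSeq promoters of the family held the ERRE rarely. In windows of 300 bases around the TSS from the RefSeq promoter table (GRCm38), available for 45 promoters of 42 of the 50 genes, TCAAGGTCA was found on either strand in 1 (2.22%, Psmc3ip), against 0.423% of 32851 mouse promoters. AAGGTCA was found in 4, those of Psma3, Psmb10, Psmd2 and Psmc3ip (8.89% against 4.72%). CCAAT was in 15 (33.3% against 37.4%), TGACNNNGC in 6 (13.3% against 12.4%), and GCGCATGCG, the core of the nuclear respiratory factor motif, in 2, those of Psma2 and Psmg1 (4.44% against 1.75%).

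Other genes of the ubiquitin pathway had peaks at a higher share than the proteasome genes in each list, with intervals that overlapped. Of 35 genes for ubiquitin, its enzymes, shuttle factors and regulators of the proteasome, 16 had a peak in WT muscle (45.7%), 22 in ERRα3SA muscle (62.9%), 14 in WT liver (40%) and 21 in ERRα3SA liver (60%). The shares over all protein-coding genes were 34.5%, 48%, 30% and 37.7%. Each lay inside the interval of the 35 genes except in ERRα3SA liver, where it lay below (43.6 to 74.4). A peak was shared between the genotypes at 7 of 35 in muscle (20%, interval 10 to 35.9, against 10.5% of all genes) and 13 of 35 in liver (37.1%, interval 23.2 to 53.7, against 17.3%). For 1 of the 13 the WT liver peak was nearest to another gene. Ubqln4, a ubiquitin shuttle factor, ranked in the top 5.19%, 0.794%, 8% and 5.44% of the lists in the same order. The atrophy ubiquitin ligases Fbxo32 and Trim63 each had a peak shared between the muscle genotypes, both in the top 6.07% in WT and in the top 3.73% and 3.86% in ERRα3SA. In liver, Fbxo32 was listed in WT (75%) and Trim63 in ERRα3SA (53.4%). Nfe2l1, the factor that activates proteasome genes when the proteasome is inhibited, ranked in the top 66.4%, 11%, 20.7% and 20.6%.

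Set beside other large complexes, the proteasome genes resembled the cytosolic ribosome rather than complex I. Of 84 ribosomal protein genes, 25%, 38.1%, 33.3% and 41.7% had a peak in the lists in the same order, each inside the interval of the proteasome genes. Of 38 genes of mitochondrial complex I, a group of known ERRα targets, the shares were 73.7%, 76.3%, 71.1% and 76.3%, each above that interval. A peak shared between genotypes was found at 52.6% of complex I genes in muscle and 68.4% in liver, against 4% and 18% of proteasome genes and 4.76% and 19% of ribosomal protein genes. Of smaller complexes built of related subunits, 2, 2, 3 and 3 of 9 chaperonin genes, 2, 4, 1 and 1 of 10 COP9 signalosome genes and 5, 6, 4 and 6 of 12 eIF3 genes had a peak.

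**Figure D4:**
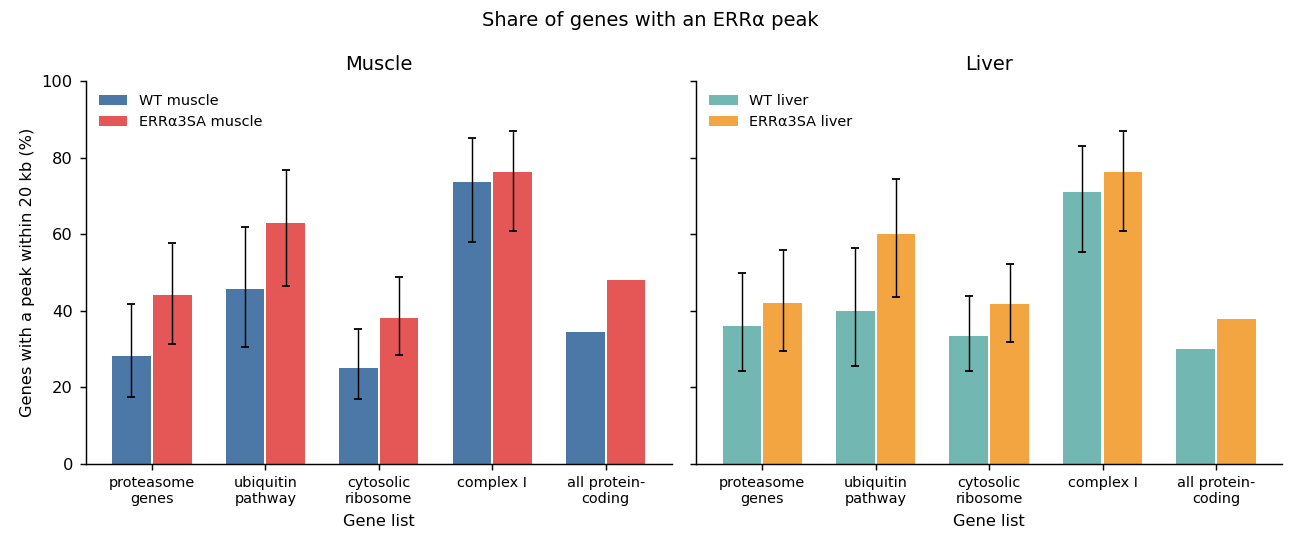
Share of genes with an ERRα peak within 20 kb (%) in muscle and liver, for the 50 proteasome genes, 35 ubiquitin pathway genes, 84 cytosolic ribosome genes, 38 complex I genes and all 21887 protein-coding genes. Bars start at 0 and the error bars are 95% Wilson intervals. Proteasome genes lie between 28% and 44%, near all protein-coding genes, and complex I between 71.1% and 76.3%.

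The gene of a peak was the one with the nearest TSS, and several proteasome genes have a close neighbour. When an interval centre was instead counted for any gene with a RefSeq TSS within 20 kb, 25, 35, 30 and 29 of the 50 genes had a peak across the lists (50%, 70%, 60% and 58%, against 49.3%, 63.2%, 44% and 52.3% of 21000 genes). The gap to all genes was widest in WT liver, and wider there than by the nearest gene (36% against 30%). No interval was computed for these counts. Psmb5, Psmc6 and Psmd13, which the lists name nowhere, each had such a peak in all 4 lists. The TSS of Psmd13, a lid subunit gene, (chr7:140882394) and that of Sirt3, a mitochondrial deacetylase (chr7:140882309), face away from each other, and a peak annotated to Sirt3 was listed in the top 4.16% in WT muscle, 4.51% in ERRα3SA muscle, 6.28% in WT liver and 5.05% in ERRα3SA liver. The ERRα3SA intervals counted as promoter peaks of Psmd13 as well, with centres 627 and 927 bp from its TSS. Psma7, Psmb9, Psmc2, Psme2 and Psmg2 also gained a promoter peak in at least 1 list through the neighbours Ss18l1, Tap1, Dnajc2, Rnf31 and Cep76, of the top 11% or lower. These intervals cannot be assigned to 1 of the paired genes from position.

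Around the limit of 20 kb, the last peaks counted were at Psmg3 (19863 bp, WT muscle), Psmc1 (19818 bp, WT muscle) and Psmd4 (19707 bp, ERRα3SA muscle). The first left out were at Psmc1 (20210 bp, WT liver), Psmb2 (20247 bp, ERRα3SA muscle), Psmb1 (21011 bp, ERRα3SA liver) and Psma1 (21388 bp, ERRα3SA liver).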

How the data were processed

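The authors sequenced 4 ERRα ChIP libraries with 4 matching inputs. The tools named in the submitters' processing notes are Trimmomatic 0.36, BWA 0.7.12, Picard 2.0.1, MACS2 2.1.1.20160309 and HOMER 4.9.1, with the mm10 build. Reads that mapped uniquely and were not PCR duplicates were kept, and the inputs hold no values used here. In the deposited lists the peak score is a number without a fixed range, and ranks were taken within a list. The score limits of 50 and 100 were applied alike to all lists and are not equally strict in each. The limit of 100 passed 6.13% of all peaks within 20 kb in WT muscle, 6.76% in ERRα3SA muscle, 20.2% in WT liver and 22.5% in ERRα3SA liver. CpG and GC contents were deposited as a fraction of the interval and are printed as a percent. Positions and distances are in bp, and gene, distance, promoter and repeat are the authors' HOMER annotation. The meaning of the score column is not given in the sources used here.

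Genes were matched by Entrez identifier to the protein-coding genes of RefSeq on GRCm38, and 1 further family symbol, listed under another name, was not a member. As a check of the build, GC fractions read from that genome were within 1e-05 of the deposited ones for 13012 of 13012, 23586 of 23587, 11226 of 11228 and 16114 of 16116 intervals checked, and sequences were read from it. Counts, shares, 95% Wilson intervals, shared peaks (centres within 300 bp) and motifs were computed with Python 3.11.15, pandas 2.3.3, scipy 1.17.1 and pysam 0.24.0, and the scripts were tested on simulated lists. Values in full were given to members with a peak in all 4 lists, a score of at least 100, an ERRE in the central 300 bp, the best rank of a list, or a peak of 1 genotype in the top 10%, and the rest by name or count. The members, gene lists and rules were chosen with earlier results of these data known. Alternatives changed the score limit, list length, distance, promoter definition, gene assignment, overlap rule and motif.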

Additional observations from a re-analysis of the deposited data

How the results depend on the processing

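In the order WT muscle, ERRα3SA muscle, WT liver and ERRα3SA liver, 14, 22, 18 and 21 proteasome genes had a peak, 3, 5, 3 and 5 a promoter peak, and 1, 4, 6 and 8 peaks an ERRE, while 2 genes shared a peak between genotypes in muscle and 9 in liver. Keeping scores of at least 50 left 3, 5, 6 and 11 genes with a peak, 1, 2 and 1 with a promoter peak in the first 3 lists, 5 ERRE peaks in ERRα3SA liver and 5 shared genes in liver. Keeping scores of at least 100 left 0, 2, 4 and 6 genes, promoter peaks at 0, 1, 1 and 2, ERRE peaks of 0, 2, 3 and 3, and shared genes of 0 in muscle and 3 in liver. With lists cut to the 21813 best peaks, ERRα3SA muscle had 10 genes against 13 in WT muscle, and 2 against 3 with a promoter peak, which turned the order of the genotypes, and liver turned likewise, with 16 genes in ERRα3SA and 18 in WT. Tied scores at the cut were broken by file order, on which the muscle counts and the ERRα3SA liver count depend. Up to 5 kb from the TSS, 9 genes in WT muscle, 13 in ERRα3SA muscle and 13 in ERRα3SA liver had a peak, 1 in muscle and 5 in liver shared one, and ERRE peaks numbered 2, 3 and 2 outside WT muscle. At any distance 4 genes shared a peak in muscle and 10 WT liver peaks held an ERRE. A promoter taken as 1000 bp or less gave 8, 9, 7 and 8 genes. Assignment to any RefSeq TSS gave 25, 35 and 30 genes in the first 3 lists, and promoter peaks at 5 and 9 in muscle. Centres within 100 bp, or leaving out Psmc3ip, left 1 shared gene in muscle. The half-site AAGGTCA was in 3, 8 and 13 peaks of WT muscle, ERRα3SA muscle and ERRα3SA liver. The cause of each shift beyond the alternative's own construction was not tested. Of 112 alternative values 63 stayed within 1.5 times the main value. No paired analysis was possible because each group has 1 library and no comparison had a test. Read depth is unknown, and 15 of the 30 ERRα3SA muscle peaks are tied at the lowest score.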
